A study of Mus musculus with 10 samples.

Results

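The regions described here are peaks of H2AK119ub that were present in both genotypes of a ChIP-Rx study. They were chosen by the H2AK119ub lists themselves, as the peaks in WT cells that were overlapped by at least 1 bp by a peak in Delta cells, and they numbered 1548 of 4922 WT peaks, or 31.5%. Both lists therefore fixed the members, and every H2AK119ub value below is a description with no test. The remaining 3374 WT peaks had no Delta counterpart and served as the comparison. WT cells carried *Scl:mCherry*, with the reporter on one allele and functional SCL. Delta cells carried *Scl* Δ/Δ:mCherry, were made from the same reporter line and had the bHLH (basic helix-loop-helix) domain deleted from both alleles. SCL is a transcription factor needed for blood specification. Both lines came from mouse J1 embryonic stem cells, labelled as C57Bl/6 X Sv129, and were expanded from sorted single cells, so the genotype cannot be told apart from other differences between the lines. Cells were taken from embryoid bodies (EBs), aggregates of differentiating stem cells, at day 4 and sorted for mCherry, which the *Scl* locus drives. *Drosophila* S2 cells were mixed in before ChIP. Cells were measured in bulk, so a mark on some of the cells and a weak mark on all of them cannot be told apart. Each mark was profiled in 1 library for each genotype, which leaves every difference without a replicate check, and no p-value is given.

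H2AK119ub is the ubiquitylation of a lysine in the tail of histone H2A, placed by Polycomb repressive complex 1 (PRC1). H3K27me3, placed by Polycomb repressive complex 2, usually lies over the same genes, which in early development are mostly regulators of cell fate. H3K4me3 marks promoters, and a promoter that carries it with H3K27me3 is called bivalent. H3K27ac marks active promoters and enhancers. PRC1 and its partners are known to be drawn to CpG-rich DNA.

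The lists held 70826 peaks over the 4 marks, and read depth cannot be derived from them. At genes that mark the sorted stage, H3K4me3 peaks reached the transcription start site (TSS) of *Kdr*, *Etv2*, *Lmo2*, *Fli1*, *Gata2* and *Runx1* in both genotypes. At *Cdh5* and *Tek* they did so in WT only, with 884 and 977 bp, and at *Pecam1* in neither. H3K27ac was listed in WT only at *Lmo2*, *Fli1* and *Gata2*, with 876, 820 and 189 bp, and in Delta only at *Runx1*, with 721 bp. It was listed in neither genotype at *Kdr*, *Etv2*, *Cdh5*, *Tek* and *Pecam1*. At *Myod1*, *Neurod1* and *Alb*, genes of muscle, neurons and liver, it was not listed either, while H3K4me3 was, at *Neurod1* with 735 and 1085 bp and at *Myod1* with 371 bp in Delta only. H3K4me3 and H3K27ac at these markers therefore give only a partial check of the sorted cells.

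The sequences below show the DNA on which H2AK119ub lay in both genotypes. Each is 240 bases around the middle of the stretch that the WT and Delta peaks shared, on the plus strand of NCBIM37 (mm9), with CpG dinucleotides in capitals. They come from the 6 gene lists with the most genes holding a member, where 3 lists with 8 such genes each tied for the last place and the first by name was taken. In each list the sequence comes from the longest shared stretch with no UTR in the 240 bases. The stretch in the intron shared by *Hoxd3* and *Hoxd4*, at chr2:74564226-74564465, held 4 CpGs, and the one upstream of *Pax3*, at chr1:78199726-78199965, held 6. The introns of *Lhx9*, at chr1:140735298-140735537, and of *Gdf7*, at chr12:8306852-8307091, held 7 each. The stretch upstream of *Foxf1a*, at chr8:123604591-123604830, held 33 CpGs, and the coding exon of *Nkx1-1*, at chr5:33773843-33774082, held 32. CpG density at the centre of a shared stretch therefore ranged widely among these members, all of which lay in H3K27me3 peaks of at least 10000 bp.
Hoxd3/Hoxd4 intron: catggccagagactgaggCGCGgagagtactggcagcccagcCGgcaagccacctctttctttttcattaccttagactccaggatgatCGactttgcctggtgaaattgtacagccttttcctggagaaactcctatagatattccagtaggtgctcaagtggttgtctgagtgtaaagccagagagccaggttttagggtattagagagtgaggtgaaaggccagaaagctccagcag
Foxf1a: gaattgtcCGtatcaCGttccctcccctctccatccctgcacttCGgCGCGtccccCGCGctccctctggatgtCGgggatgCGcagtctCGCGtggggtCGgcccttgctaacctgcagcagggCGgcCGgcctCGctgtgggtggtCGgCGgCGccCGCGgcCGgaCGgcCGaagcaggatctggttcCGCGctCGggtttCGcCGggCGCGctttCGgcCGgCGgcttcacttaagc
Lhx9 intron: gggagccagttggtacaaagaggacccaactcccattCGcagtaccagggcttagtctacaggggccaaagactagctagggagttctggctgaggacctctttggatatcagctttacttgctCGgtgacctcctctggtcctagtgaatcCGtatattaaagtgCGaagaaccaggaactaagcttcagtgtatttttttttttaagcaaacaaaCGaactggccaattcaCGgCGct
Nkx1-1 coding exon: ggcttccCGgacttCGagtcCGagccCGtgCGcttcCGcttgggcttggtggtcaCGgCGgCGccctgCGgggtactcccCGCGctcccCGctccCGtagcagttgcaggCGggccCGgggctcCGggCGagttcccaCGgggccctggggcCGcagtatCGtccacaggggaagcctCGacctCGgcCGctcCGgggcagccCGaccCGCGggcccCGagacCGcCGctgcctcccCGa
Pax3 upstream: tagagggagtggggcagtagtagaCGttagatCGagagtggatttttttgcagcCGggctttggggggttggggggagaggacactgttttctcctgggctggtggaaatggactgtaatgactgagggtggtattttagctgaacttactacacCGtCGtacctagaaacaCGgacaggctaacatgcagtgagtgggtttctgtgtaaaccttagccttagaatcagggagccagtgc
Gdf7 intron: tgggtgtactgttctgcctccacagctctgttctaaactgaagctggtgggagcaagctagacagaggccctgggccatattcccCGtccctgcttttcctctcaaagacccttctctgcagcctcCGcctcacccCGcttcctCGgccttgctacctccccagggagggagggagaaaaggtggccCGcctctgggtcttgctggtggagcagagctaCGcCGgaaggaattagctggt

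CpG content over all members is given for the 500 bp at the midpoint of the WT peak. Members held a median of 2.8 CpGs per 100 bases (95% interval 2.6 to 3), and WT peaks without a counterpart held 1.8 (1.8 to 1.8). Windows of the same size placed every 100000 bp along the autosomes held 0.6. The GC content of members and of the other WT peaks was alike, with medians of 54.8% and 54.6%, against 41.8% along the autosomes. A window with at least 50% GC and an observed over expected CpG of at least 0.6 was called CpG-rich. This held for 356 members, or 23% (Wilson 95% interval 21 to 25.2), for 11.8% of the other WT peaks (10.8 to 12.9) and for 0.706% of the windows along the autosomes. Among peaks of 500 bp to under 1000 bp the shares were 20.7% (16.9 to 25.2) and 10% (8.53 to 11.7). At 2000 bp and longer they were 25.6% (21.9 to 29.7) and 25% (17.9 to 33.8), so the longest peaks were not set apart by CpG-rich midpoints. Intervals here cover counting error only, and neighbouring peaks are not independent.

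Members and the Delta peaks that touched them overlapped in part. Most members (1374) touched 1 Delta peak, 143 touched 2 and 31 touched 3 or more. The 1604 Delta peaks involved made up most of the Delta list by length, at 82.9% of its covered bp, while members made up 53.4% of the covered bp in WT. In sum, members covered 2.81 Mb in WT. The touching Delta peaks covered 2.35 Mb, 0.839 times as much, and 1.61 Mb were shared. The whole H2AK119ub list had a ratio of 0.54. Within a member a median of 60.5% of the bp lay inside Delta peaks, with quartiles of 33.6% and 91.5%. The Delta peak lay wholly inside the member in 329 cases and the member wholly inside the Delta peak in 300, while the ends were staggered in 745 and several Delta peaks met 1 member in 174.

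The median log2 ratio of Delta to WT bp per member was -0.06 (95% interval -0.15 to 0.03), with quartiles of -0.98 and 0.86. This value depends on how Delta bp are counted, since each of the 139 Delta peaks that touch 2 or more members counts in full for each. With only the Delta bp inside the member, where it cannot be positive, it was -0.73. With peaks up to 3000 bp apart joined it was -0.45 and with WT and Delta peaks chained into loci it was -0.26. Members with fewer bp in Delta numbered 800 and those with more numbered 748. A loss to at most 50% of the WT bp was seen in 24.4% of members and a gain to at least 2 times in 21.5%. The ratio went down with WT length, from a median of 1.38 under 500 bp to 0.32 at 500 bp to under 1000 bp, -0.39 at 1000 bp to under 2000 bp and -0.55 at 2000 bp and longer. WT length enters both the class and the ratio, and classing by the Delta peak gave the mirror image, with a median log2 ratio of WT to Delta bp of 1.86 for Delta peaks under 500 bp and -0.04 for those of 2000 bp and longer. Delta cover was lower at the edges of a member than in its middle. In members of 2000 bp and longer it rose from 46.6% in the outermost bins, of 10% of the length each, to 60.2% in the central bins. The rule that chose members by overlap with a Delta peak can by itself give such a difference, and its part was not tested.

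**Figure D1:**
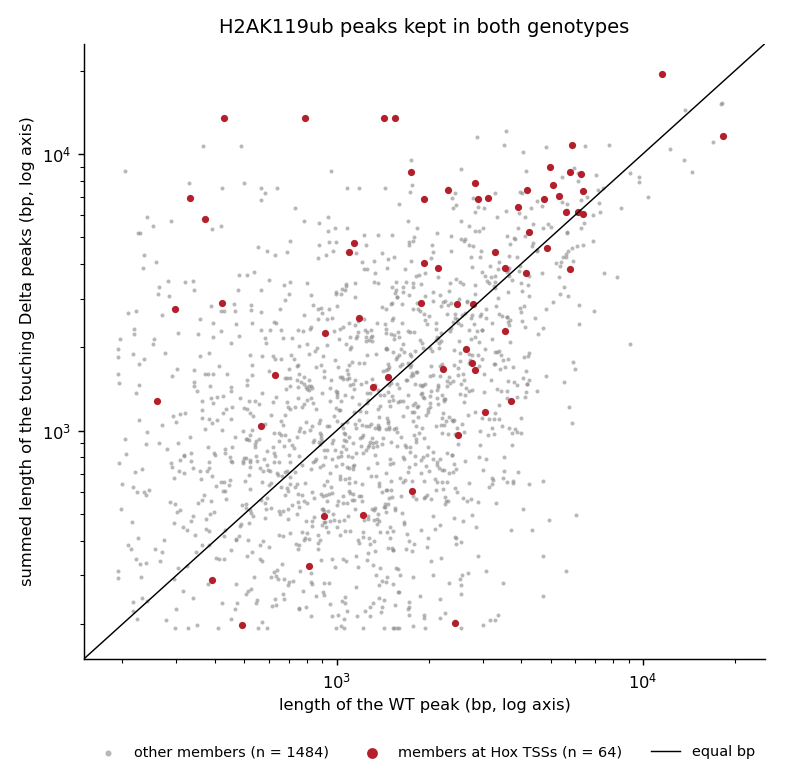
Each point is a member, with the length of the WT H2AK119ub peak (bp, log axis) against the summed length of the touching Delta peaks (bp, log axis), and the line marks equal bp. Red points are the 64 members at *Hox* TSSs, of which 44 had more bp in Delta and 20 fewer, and the cloud as a whole straddles the line. A Delta peak that touches several members counts in full for each, and the 64 members touch 73 Delta peaks, which cover 74.1% of their bp.

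Members just inside the rule shared very few bases with Delta. The 3 smallest overlaps were 4 bp at a 1026 bp member 5058 bp from the TSS of *Fli1*, 7 bp at a 452 bp member in an intron, nearest to *Wnt6*, and 8 bp at a 783 bp member nearest to *Dda1*. Just outside it were WT peaks of 460 bp at *Il12rb1*, which abutted a Delta peak, of 734 bp near *Tbx21*, 5 bp away from one, and of 300 bp near *Tbx4*, 7 bp away. In all, 64 members had under 10% of their bp inside Delta peaks, and 402 had at least 90%.

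The other marks were called from separate libraries and took no part in the choice of members. H3K27me3 was the mark most often found with them. In WT it overlapped 1494 members, or 96.5% (95.5 to 97.3), and in Delta 1499, or 96.8% (95.8 to 97.6). Among WT peaks without a counterpart the shares were 64.9% (63.3 to 66.5) and 63% (61.3 to 64.6). H3K27me3 covered 95.3% of the bp of members in WT and 95.7% in Delta, against 62.5% and 60.6% for the other peaks.

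Members were longer than the other WT peaks, with medians of 1308 and 597 bp, so peaks of like length were compared. Members were also the stronger calls, with a median −log10 q of 2.07 against 1.79, and peaks were not matched for this. Under 500 bp, H3K27me3 in WT overlapped 93.1% of members (89.1 to 95.7) and 62.6% of the others (60 to 65.1). At 2000 bp and longer it overlapped 98.1% (96.5 to 99) and 83% (75 to 88.9). The midpoint alone, which does not depend on length, lay in WT H3K27me3 in 94.8% of members (93.6 to 95.8) and 60.7% of the others (59 to 62.3). The intervals of members and other peaks did not overlap in any of the 4 length classes.

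**Figure D2:**
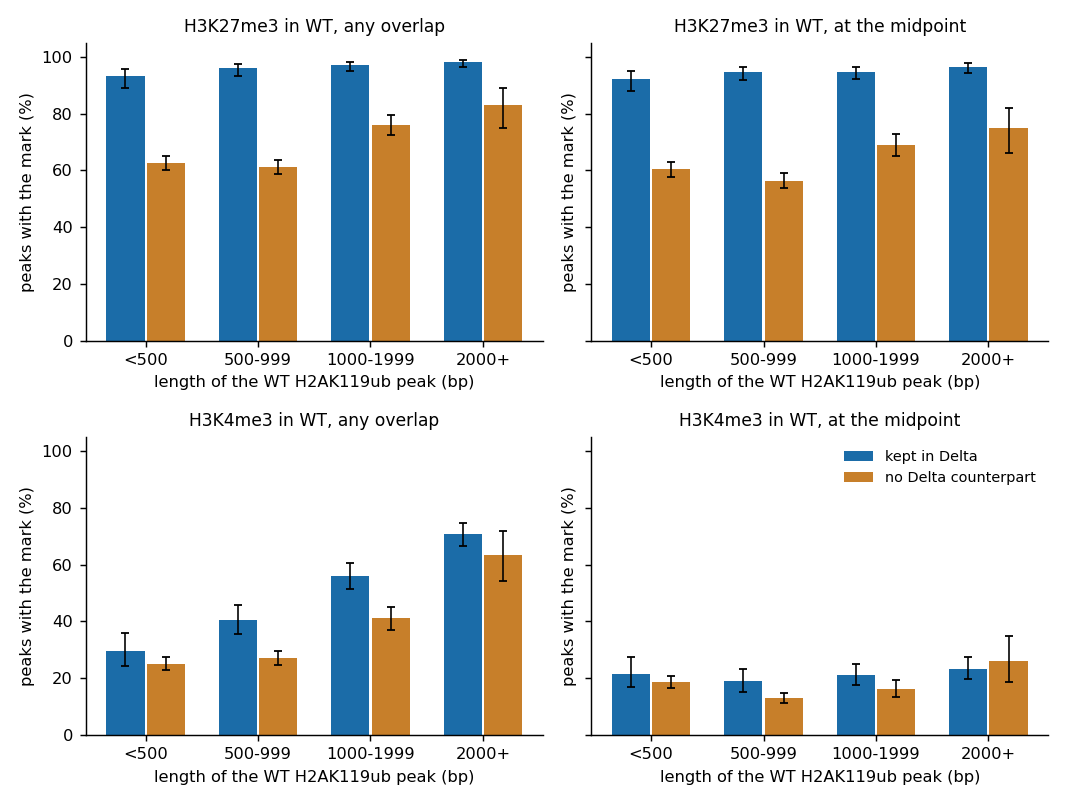
Bars give the share of WT H2AK119ub peaks (%) that carried H3K27me3 (top) or H3K4me3 (bottom) in WT, by length of the H2AK119ub peak (bp), with 95% Wilson intervals. Members lie above peaks without a counterpart for H3K27me3 in every class and on both measures, while for H3K4me3 at the midpoint the shares were 21.6% and 18.5% under 500 bp, 18.8% and 12.8% at 500 bp to under 1000 bp and 23.3% and 25.9% at 2000 bp and longer.

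The H3K27me3 peaks under members were long. The longest one touching a member had a median of 13086 bp in WT (12354 to 14237) and 13632 bp in Delta (12187 to 14115), over the 1494 and 1499 members on the mark. For the other WT peaks these medians were 5386 bp (5204 to 5648) and 5746 bp (5506 to 5957). The difference was present at like length of the H2AK119ub peak, with 11310 against 5262 bp in WT under 500 bp and 17514 against 6740 bp at 2000 bp and longer. A WT H3K27me3 peak of 10000 bp or longer lay under 57% of members and 16.1% of the others. With each H3K27me3 peak counted once, which keeps peaks that hold many members from weighing more, the medians for members fell to 7932 bp (WT) and 7997 bp (Delta).

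The length of H3K27me3 over members differed little between genotypes. Over the 1482 members on the mark in both, the median log2 ratio of Delta to WT length was 0.03, with quartiles of -0.06 and 0.13. It stayed within 1.5-fold in 88.7%, against 82.3% of the other WT peaks on the mark in both genotypes. It was over 1.5-fold longer in Delta at 109 members and over 1.5-fold shorter at 59. The lengths compared are those of the longest peak touching the member in each genotype, and at 50 of these 59 the WT H3K27me3 peak met 2 or more Delta peaks. Only 12 of the members with H3K27me3 in WT, or 0.803% (0.46 to 1.4), had none in Delta, against 7.44% of the others (6.42 to 8.62). Across the 1482 members, Spearman's rho between the change in H2AK119ub bp and the change in H3K27me3 length was 0.01. This and the correlations below are descriptions, since members in 1 H3K27me3 peak share its length. H3K27me3 length in WT went with the length of the touching Delta peaks at rho 0.46 and with the length of the WT peak at rho 0.18. These 2 lengths are unlike measures, since the WT length is that of 1 peak and the Delta length sums all touching peaks. A Delta peak that touches several members also counts in full for each.

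Seen from H3K27me3, members lay in the long peaks. Of 120 WT H3K27me3 peaks of 20000 bp and longer, 115 held a member (95.8%), as did 70.3% of those of 10000 bp to under 20000 bp, 27.5% of those of 5000 bp to under 10000 bp and 2.28% of the 9769 shorter ones. The 115 peaks of 20000 bp and longer with a member held 513 members, and 104 of these peaks held 2 or more. A long peak has more room for a member, so the covered share of bp was also computed over all WT H3K27me3 peaks. H2AK119ub covered 35.5% of the bp in WT and 33.2% in Delta for H3K27me3 peaks of 20000 bp and longer. For those of 10000 bp to under 20000 bp it covered 23.4% and 16.8%, for those of 5000 bp to under 10000 bp 13.5% and 6.54%, and for those under 5000 bp 5.9% and 1.86%.

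**Figure D3:**
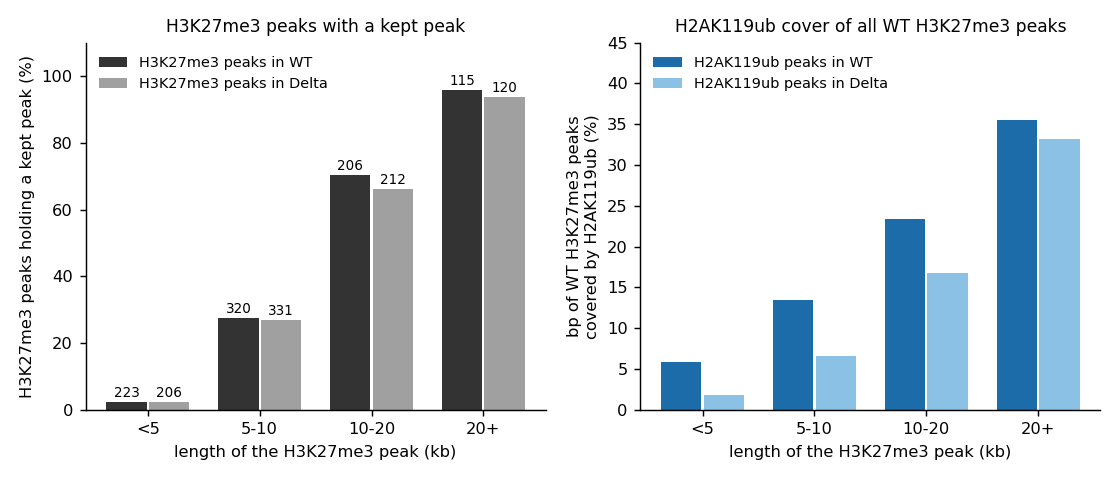
On the left, bars give the share of H3K27me3 peaks (%) that held a member, by H3K27me3 peak length (kb) and genotype, with the number of such peaks above each bar. On the right, bars give the share of bp (%) of all WT H3K27me3 peaks covered by H2AK119ub in WT and Delta, which rises from 5.9% and 1.86% under 5 kb to 35.5% and 33.2% at 20 kb and longer.

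H3K4me3 overlapped 821 members in WT, or 53% (50.5 to 55.5), and 747 in Delta, or 48.3% (45.8 to 50.7). For the other WT peaks the shares were 29.6% (28.1 to 31.1) and 27.1% (25.6 to 28.6). Within length classes, the intervals overlapped at 2000 bp and longer, where 70.9% of members (66.6 to 74.8) and 63.4% of the others (54.2 to 71.7) met H3K4me3 in WT, and under 500 bp, with 29.7% (24.2 to 35.9) and 24.9% (22.7 to 27.3). They did not overlap at 1000 bp to under 2000 bp, with 56% (51.5 to 60.4) and 41% (36.9 to 45.2), or at 500 bp to under 1000 bp, with 40.6% (35.7 to 45.7) and 26.9% (24.6 to 29.4). At the midpoint, over all lengths, 21.3% (19.3 to 23.4) and 16.1% (14.9 to 17.4) met the mark. Of the members with H3K4me3 in WT, 153 had none in Delta, or 18.6% (16.1 to 21.4), against 18.8% of the others (16.5 to 21.4). In 5000 bp around the midpoints, H3K4me3 covered 20.5% of the bases in WT and 18.7% in Delta. The ratio of 0.912 stands beside 0.908 for the whole H3K4me3 list.

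Both H3K27me3 and H3K4me3 met 805 members in WT (52%) and 734 in Delta (47.4%). H3K27me3 without H3K4me3 met 689 in WT (44.5%) and 765 in Delta (49.4%). H3K27ac was nearly absent, with 7 members in WT and 7 in Delta, or 0.452% each (0.219 to 0.93), against 0.889% (0.624 to 1.27) and 1.24% (0.922 to 1.68) of the other WT peaks.

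Of all members, 955 came within 2500 bp of a coding TSS, or 61.7% (59.2 to 64.1), against 49.5% of the other WT peaks (47.8 to 51.2). H3K4me3 overlapped 608 of the 955 in WT, or 63.7%, and took up 23.9% of their bp. The midpoint lay in an intron in 41.5% of members, in a coding exon in 14.7% and between genes in 34.9%. Around the outermost TSS of the 802 genes with a member, H2AK119ub was most frequent 1200 bp downstream, at 53.2% of genes in WT and 43.5% in Delta. It was lower at the TSS itself, at 27.1% and 17.3%, and rose again 1000 bp upstream, to 33% and 25.1%. H3K4me3 was most frequent 200 bp downstream of the TSS, at 71.1% in both genotypes. H3K27me3 was broad, with 89.9% of genes at its highest point in WT and 90% in Delta, and was lower toward 10000 bp on either side.

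**Figure D4:**
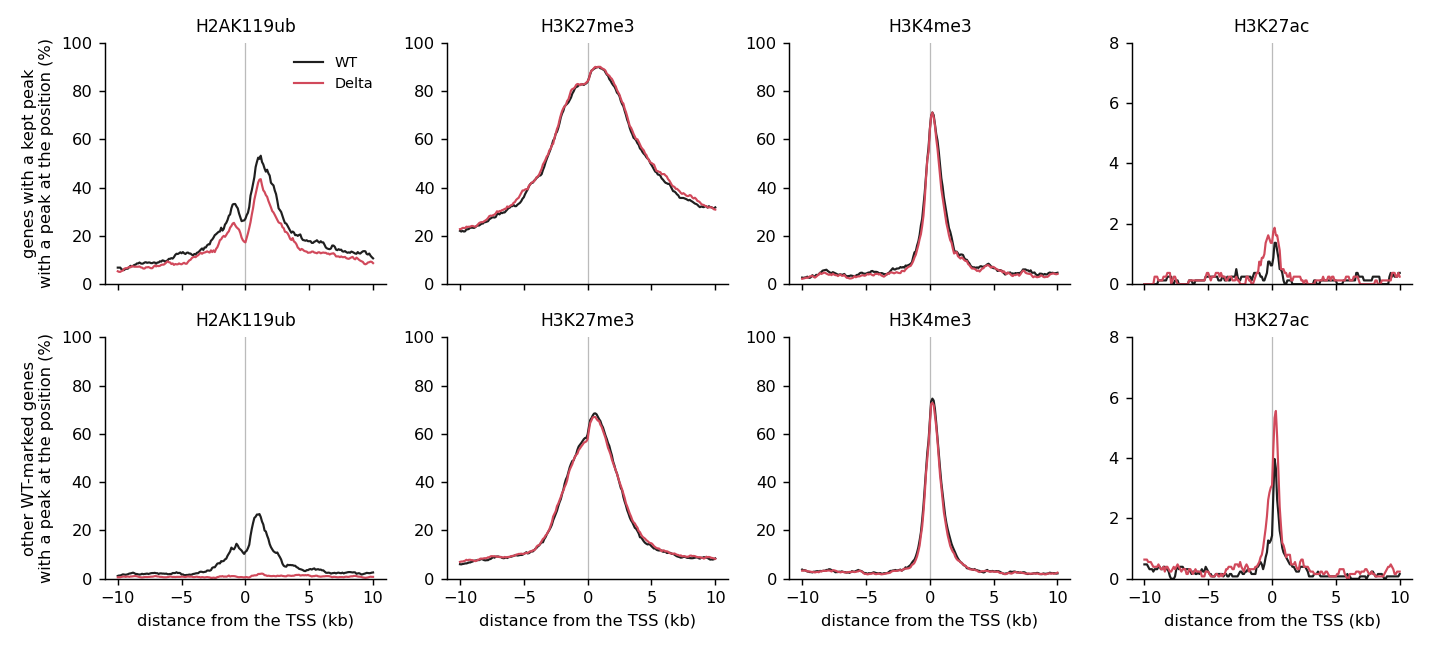
Lines give the share of genes (%) with a peak at each distance from the TSS (kb, downstream to the right) in WT (black) and Delta (red), for the 802 genes with a member (top) and the 1258 other genes with a WT H2AK119ub peak at the TSS (bottom). H2AK119ub has a dip at the TSS where H3K4me3 has its maximum, and the scale of H3K27ac ends at 8%.

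Genes were counted as holding a member when one came within 2500 bp of any TSS of a coding transcript. This gave 802 of 22359 coding genes, or 3.59%, and 38.9% of the 2060 genes with any WT H2AK119ub peak there. Of the 7791 genes with H3K27me3 at the TSS in WT, 10.1% held a member. For comparison, 27.8% of all coding genes had H3K27me3 at the TSS in both genotypes and 59.6% had H3K4me3 in both. Genes with a member had H3K27me3 in 97.8% of cases in WT and 98% in Delta, and H3K4me3 in 92.8% and 91.8%. For the 1258 other WT-marked genes these shares were 85.1% and 84.2% for H3K27me3 and 89.7% and 90.1% for H3K4me3. For the bp of a mark per gene, the full lengths of all peaks within 2500 bp of its TSSs were summed. They can therefore differ between genotypes through peak ends far from the TSS. Between genotypes, 56.5% of the 802 genes had more such bp of H3K27me3 in Delta. The share with fewer bp of H3K4me3 was also 56.5%, and 31.8% had both changes. These shares are not given here for other coding genes, so they cannot be called particular to genes with a member. The bp of the whole lists in Delta were 1.02 times those in WT for H3K27me3 and 0.908 times for H3K4me3.

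Gene families were counted from 35 lists, some of which share genes. In 32 lists the share of genes with a member was above the 3.59% of all coding genes, and 3 lists held none. The 32 are all lists with any member, down to 4.17% of clustered protocadherins. Among genes with any WT H2AK119ub peak at the TSS, 38.9% held a member. On that base the share was 100% at *Dlx* and 92.1% at *Hox* genes. It was 50% at Iroquois, FGF ligand, Notch and cardiac genes and 37.5% at voltage-gated potassium channels. The *Dlx*, *Hox*, LIM homeobox, *Pax* and *Nkx* lists had the highest shares. A member was found at 6 of 6 *Dlx* genes, 35 of 39 *Hox* genes, 10 of 12 LIM homeobox genes, 7 of 9 *Pax* genes and 9 of 14 *Nkx* genes. It was found at 3 of 6 genes of the sine oculis family (*Six2*, *Six3* and *Six6*) and 3 of 6 Iroquois genes, a share that *Gata* genes also had. The TALE homeobox list, which leaves out the Iroquois genes, had a member at 1 of 9, *Meis1*. All of these lists are small, and neighbouring genes in a cluster can share a member. The LIM genes were *Isl2*, *Lhx1*, *Lhx2*, *Lhx3*, *Lhx4*, *Lhx5*, *Lhx6*, *Lhx9*, *Lmx1a* and *Lmx1b*, and the *Pax* genes *Pax1*, *Pax2*, *Pax3*, *Pax5*, *Pax6*, *Pax7* and *Pax9*. The *Nkx* genes were *Nkx1-1*, *Nkx2-1*, *Nkx2-2*, *Nkx2-3*, *Nkx2-5*, *Nkx3-2*, *Nkx6-1*, *Nkx6-2* and *Nkx6-3*, and the Iroquois genes *Irx3*, *Irx5* and *Irx6*.

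**Figure D5:**
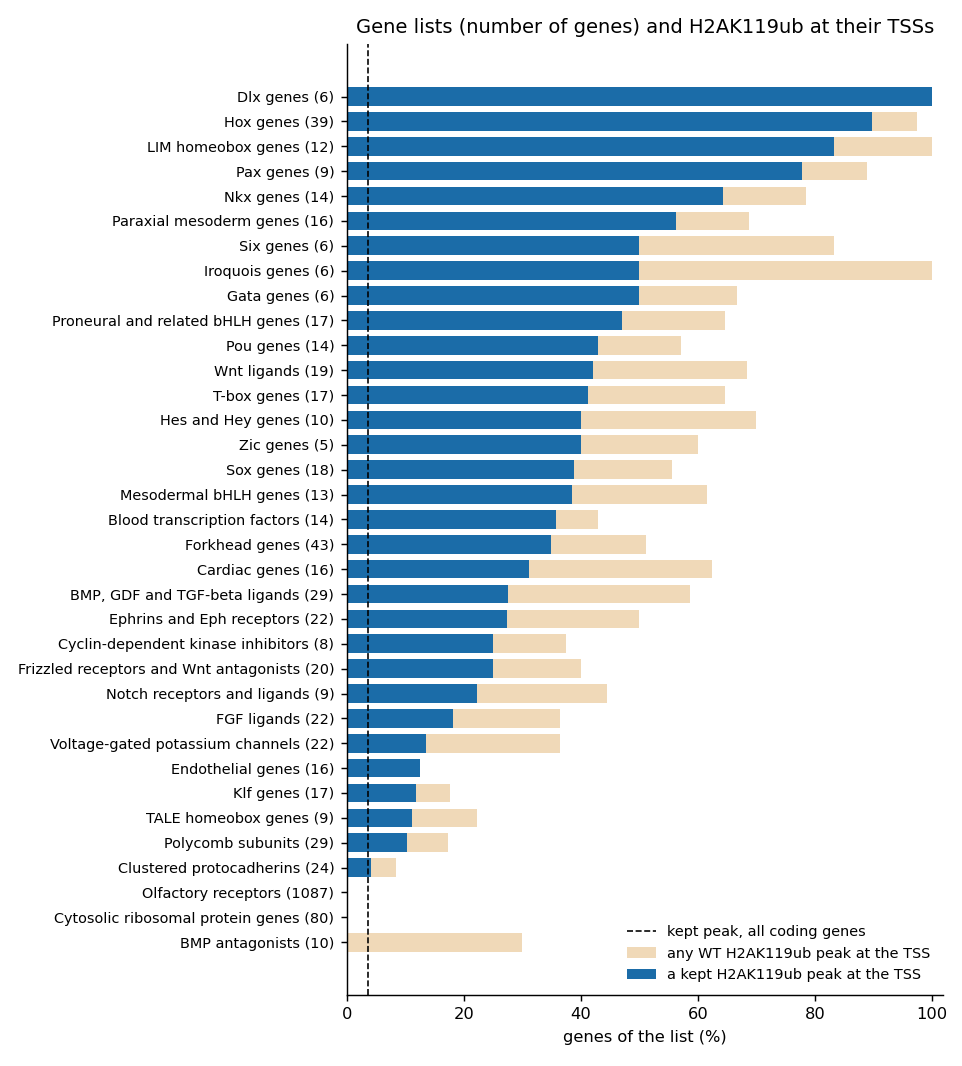
Bars give, for each gene list, the share of its genes (%) with any WT H2AK119ub peak at the TSS (pale) and with a member there (blue), and the dashed line marks the 3.59% of all coding genes with a member. For members, *Dlx* and *Hox* genes lie at 100% and 89.7%, while ribosomal protein genes and olfactory receptors lie at 0 on both measures.

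The *Hox* genes, which pattern the body axis and sit in 4 clusters, held the densest groups of members. A single WT H3K27me3 peak over the *Hoxc* cluster (chr15:102732312-102874778) held 33 members, which summed to 66785 bp. H2AK119ub covered 50.6% of this H3K27me3 peak in WT and 54.3% in Delta. In the *Hoxa* cluster (chr6:52109933-52222529) 17 members summed to 67594 bp, and the cover was 61.8% and 65.1%. In the *Hoxb* cluster (chr11:96111744-96211147) 22 members summed to 56512 bp, with 58.8% and 52.2%. In the *Hoxd* cluster (chr2:74483806-74553896) 13 members summed to 27307 bp, with 43.2% and 40.8%. A second WT H3K27me3 peak of 37614 bp, at *Hoxd3*, held 18819 bp of H2AK119ub in WT against 24060 bp in Delta, so the change at *Hoxd* was not in 1 direction. *Hoxb13* lay in an H3K27me3 peak of its own with 8 members. The longest member was 6298 bp in the *Hoxc* peak, at *Hoxc10*, against 8493 bp in Delta. At *Hoxb6* and *Hoxb7* a member of 6125 bp faced 6197 bp, and at *Hoxd11* one of 6371 bp faced 6083 bp.

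The summed length of the H3K27me3 peaks at the TSS was higher in Delta at all 35 *Hox* genes with a member. These are few separate observations because genes of a cluster share a peak, whose ends can lie far from a TSS. The *Hoxa* peak was 112597 bp (WT) and 116140 bp (Delta), and the *Hoxb* peak 99404 and 108486 bp. The member at *Hoxd3* and *Hoxd4* lay in an H3K27me3 peak of 37614 bp in WT, apart from the 70091 bp peak over *Hoxd11*, and both met a single peak of 113628 bp in Delta. H3K4me3 was present at 28 of the 35 genes in each genotype, with fewer bp in Delta at 24 and more at 6, beside the 56.5% of all genes with a member. H3K27ac was listed at none of the 35. *Hoxb2*, *Hoxd1* and *Hoxd8* had a WT peak with no counterpart.

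The longest members came from these families and from other developmental regulators. The longest of all spanned *Hoxa9*, *Hoxa10* and *Hoxa11* (chr6:52182043-52200374), with 18332 bp in WT and 11603 bp over 5 Delta peaks. *Pax7*, a regulator of muscle stem cells, had 18109 bp (chr4:139379630-139397738) against 15303 bp in Delta. *Nfix*, a nuclear factor I gene, had 18052 bp (chr8:87295089-87313140) and 15111 bp. *Hlx*, a homeobox gene, had 16918 and 11018 bp, and *Pax3* had 13765 and 14405 bp. A member near *Cbx8* had 12310 bp (WT) and 10440 bp (Delta), and lay 2812 bp from the TSS of *Cbx8*. Members at *Insl3* and *Jak3* (10442 and 6996 bp) and at *Hoxa3*, *Hoxa6* and *Hoxa7* (11548 and 19452 bp) were also among the 10 longest, as was that of *Foxf1a*. Of the 10, all of at least 10000 bp, 8 had fewer bp in Delta.

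The 5 largest gains were measured at *Hoxa7* and *Hoxa9*, where 4 short WT members of 428 to 1547 bp touched a single Delta peak of 13474 bp, and in an intron of *Tbx5*, where a WT member of 367 bp lay inside a Delta peak of 10676 bp. *Tbx5* encodes a T-box factor of heart and forelimb. The largest losses lay at *Foxf1a*, which encodes a forkhead factor of lateral mesoderm. One of its members (chr8:123608416-123617486) had 9071 bp (WT) and 2052 bp (Delta), and the other (chr8:123592512-123606985) had 14474 and 8617 bp. The H3K27me3 peak there was 25434 bp in WT, of which Delta H3K27me3 peaks covered 90%, the H3K4me3 peak 4185 and 9663 bp, and a 292 bp H3K27ac peak was listed in Delta alone. *Dio3*, which encodes a deiodinase, went from 6070 bp to 494 bp of H2AK119ub, while its H3K27me3 was 13783 and 12705 bp. *Hlx* and the longest *Hoxa* member were the other 2 with the largest losses.

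Other homeobox families held long members. *Lhx5*, a regulator of forebrain development, had 9722 bp in WT against 8294 bp in Delta, and *Lhx9*, a regulator of gonad formation, 7053 against 8369 bp. *Lmx1b*, a regulator of dorsal limb identity, had members of 6137, 5460 and 4026 bp facing 7986, 6735 and 3197 bp, and its H3K27me3 peak was 28311 bp (WT) and 48386 bp (Delta). *Pax2* (kidney) had 7169 against 7391 bp and *Pax6* (eye) 6309 against 6804 bp. *Nkx2-2*, a regulator of ventral neural fate, had 5919 against 1777 bp. *Nkx2-3* had 4901 against 5603 bp. *Six3*, a forebrain regulator, had members of 4740 and 4526 bp that faced 5405 and 4502 bp. *Irx3* had 5340 against 3582 bp, and its WT H3K27me3 peak of 15661 bp met 2 Delta peaks that summed to 13507 bp. The summed length of the H3K27me3 peaks at the TSS was lower in Delta at all 6 *Dlx* genes, as in the 37960 and 37353 bp at *Dlx5*. It was lower at 41.9% of all genes with a member. The 6 share 4 H3K27me3 peaks, *Dlx1* with *Dlx2* and *Dlx5* with *Dlx6*, and Delta peaks covered 91.7% to 98.8% of each. Their members had a median log2 ratio of Delta to WT bp of 0.60, with 7 of 10 higher in Delta.

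Among other transcription factors a member was found at 15 of 43 forkhead genes (*Foxa2*, *Foxb1*, *Foxb2*, *Foxc2*, *Foxd1*, *Foxd3*, *Foxd4*, *Foxe1*, *Foxe3*, *Foxf1a*, *Foxf2*, *Foxj1*, *Foxl2*, *Foxo6* and *Foxp4*). The 7 of 18 *Sox* genes were *Sox2*, *Sox6*, *Sox8*, *Sox14*, *Sox17*, *Sox18* and *Sox21*, and the 7 of 17 T-box genes *Tbr1*, *Tbx1*, *Tbx2*, *Tbx4*, *Tbx5*, *Tbx15* and *Tbx21*. Members also lay at 6 of 14 *Pou* genes (*Pou3f1*, *Pou3f2*, *Pou3f3*, *Pou4f1*, *Pou4f2* and *Pou4f3*) and at 8 of 17 proneural and related bHLH genes (*Ascl2*, *Atoh1*, *Bhlhe23*, *Neurod2*, *Neurog1*, *Neurog2*, *Neurog3* and *Olig2*). They lay at 4 of 10 *Hes* and *Hey* genes (*Helt*, *Hes2*, *Hes3* and *Hes5*), 3 of 6 *Gata* genes (*Gata2*, *Gata4* and *Gata6*), 2 of 5 *Zic* genes and 2 of 17 *Klf* genes. Each of these shares is above the 3.59% of all coding genes.

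Kept length varied widely within these families. *Tbx2* had 7438 bp against 7548 bp in Delta, *Tbx5* 6462 against 10676 bp and *Tbx1* 6297 against 5382 bp. *Sox14*, a neural gene, had 6885 against 4833 bp. *Sox6* had 2032 against 337 bp, and *Sox2*, a pluripotency and neural factor gene, 1877 against 252 bp, where Delta peaks covered 95.2% of the 34609 bp WT H3K27me3 peak. *Olig2*, a regulator of motor neurons and oligodendrocytes, had 5017 against 5471 bp and *Neurog1* 3229 against 2144 bp. The 2745 bp member of *Neurod2*, a neuronal bHLH gene, lay wholly inside a Delta peak of 4262 bp. *Hes3* had 5522 against 3297 bp and *Hes2* 3891 against 1468 bp. *Pou3f3* had 1859 against 3664 bp and *Pou4f2* 1520 against 2513 bp. *Zic1* and *Zic4*, which share an H3K27me3 peak of 69842 bp (WT) and 69182 bp (Delta), had a member of 4160 bp against 1383 bp.

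Among signalling genes, of the *Wnt* ligands 8 of 19 had one, namely *Wnt1*, *Wnt3*, *Wnt3a*, *Wnt6*, *Wnt7a*, *Wnt7b*, *Wnt10a* and *Wnt10b*. The longest, at *Wnt10a*, had 9092 bp in WT against 8539 bp in Delta. At *Wnt1*, *Wnt7b* and *Wnt3* the members of 4732, 3834 and 3006 bp faced 2360, 1014 and 199 bp. *Wnt1* and *Wnt10b* are neighbours whose WT H3K27me3 peaks of 25843 and 15246 bp faced 1 peak of 42995 bp in Delta. Members lay at 5 of 20 Frizzled receptor and Wnt antagonist genes (*Fzd5*, *Fzd7*, *Fzd10*, *Sfrp1* and *Sfrp5*), with 2748 against 2137 bp at *Sfrp1* and 2388 against 815 bp at *Fzd5*.

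Among other ligands, members lay at 4 of 22 FGF genes (*Fgf4*, *Fgf8*, *Fgf9* and *Fgf11*) and 8 of 29 BMP, GDF and TGF-beta genes (*Bmp1*, *Bmp6*, *Gdf1*, *Gdf6*, *Gdf7*, *Inhbb*, *Lefty1* and *Tgfb1*). *Fgf11* had 4269 bp in WT against 1525 bp in Delta, and *Fgf8* members of 3597 and 2919 bp faced 2573 and 2099 bp. *Gdf7* had 3476 against 2590 bp, and *Lefty1*, a Nodal antagonist gene, 2300 against 1452 bp. The 6 of 22 ephrin and Eph receptor genes were *Efna2*, *Efna3*, *Epha8*, *Epha10*, *Ephb1* and *Ephb2*, with 4108 against 1850 bp at *Efna3* and 1858 against 978 bp at *Ephb1*. Of 9 Notch receptor and ligand genes, *Dll1* and *Dll4* had a member. The 10 BMP antagonist genes had none, beside 3.59% of all coding genes. In WT, 9 of them had H3K27me3 at the TSS, and of all genes with H3K27me3 there 10.1% held a member. *Chrd*, *Chrdl2* and *Fstl3* had a WT peak without counterpart.

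Among cell cycle and Polycomb genes, *Cdkn1c* and *Cdkn2a*, which encode inhibitors of cyclin-dependent kinases, were the 2 of 8 inhibitor genes with a member. At *Cdkn2a* a 227 bp member lay inside a Delta peak of 1457 bp, and Delta peaks covered 95.8% of the 41650 bp WT H3K27me3 peak. At *Cdkn1c* a 1508 bp member touched a Delta peak of 2871 bp, and Delta peaks covered 92.6% of the 36023 bp WT H3K27me3 peak. Polycomb subunit genes held members in 3 of 29 cases, among them *Bmi1* and *Cbx8*, which encode PRC1 subunits. At *Bmi1* a 395 bp member lay inside a Delta peak of 2182 bp.

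Genes of mesodermal lineages were counted by list. A member lay at 9 of 16 paraxial mesoderm genes, 5 of 16 cardiac genes, 5 of 13 mesodermal bHLH genes, 5 of 14 blood transcription factor genes and 2 of 16 endothelial genes, *Sox17* and *Sox18*. The paraxial genes were *Dll1*, *Foxc2*, *Mesp2*, *Pax1*, *Pax3*, *Pax7*, *Pax9*, *Tcf15* and *Uncx*. The summed length of the H3K27me3 peaks at the TSS was higher in Delta at 5 of these 9 and lower at 4. At *Foxc2* the longer member had 4841 bp (WT) and 10633 bp (Delta), and at *Pax9* the longer one had 4943 bp and 475 bp. The cardiac genes with a member were *Gata4*, *Gata6*, *Hand2*, *Nkx2-5* and *Tbx5*, and 5 others, *Gata5*, *Hand1*, *Isl1*, *Mesp1* and *Tbx20*, had only WT peaks without counterpart. *Hand2*, a bHLH gene of heart and limb, lay in a 47263 bp H3K27me3 peak with 9 members, of which H2AK119ub covered 51.8% in WT and 46.7% in Delta. *Nkx2-5* had members of 5411 and 251 bp against 4061 and 2056 bp in Delta. The mesodermal bHLH genes with a member were *Hand2*, *Mesp2*, *Myod1*, *Tcf15* and *Twist2*, with 1463 against 297 bp at *Tcf15* and 1165 against 213 bp at *Twist2*.

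The blood transcription factor genes with a member were *Cbfa2t3*, *Gata2*, *Ikzf1*, *Klf1* and *Lyl1*. In Delta, all 5 had a higher summed length of the H3K27me3 peaks at the TSS and a lower one of the H3K4me3 peaks. Both changes were seen at 31.8% of all genes with a member. At *Lyl1*, a bHLH gene related to *Scl*, H3K27me3 summed to 10064 bp (WT) and 18494 bp (Delta), H3K4me3 to 3110 and 553 bp and H3K27ac to 887 and 0 bp. Its 2400 bp member lay inside a Delta H2AK119ub peak of 6379 bp. At *Gata2*, a GATA factor of blood stem cells, H3K27me3 was 7106 and 15273 bp, H3K4me3 7796 and 7203 bp and H3K27ac 189 and 0 bp. Its 2 members had 3454 and 2233 bp in WT and 1883 and 2922 bp in Delta. At *Klf1*, an erythroid factor gene, H3K27me3 was 473 and 3130 bp and H3K4me3 1783 and 875 bp. *Ikzf1*, a lymphoid factor gene, had 4846 and 5700 bp of H3K27me3 and 2728 and 1676 bp of H3K4me3. At *Cbfa2t3*, a corepressor gene, 1780 and 1210 bp members faced 1087 and 559 bp in Delta, and H3K27ac went from 593 bp to 0. *Cbfa2t3*, *Klf1* and *Lyl1* lie on chromosome 8, which is set apart below. H3K27ac in WT and none in Delta was seen at 8 of the 802 genes, or 0.998%. They were *Cbfa2t3*, *Gata2*, *Lyl1*, *Klf2*, *Abi3*, *Nkd1*, *Scrt1* and *2810428I15Rik*, named after their values were seen. The reverse, H3K27ac in Delta and none in WT, was seen at 22 of the 802, or 2.74%.

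H3K27ac came within 2500 bp of the TSS of 21 genes with a member in WT, or 2.62%, and of 35 in Delta, or 4.36%. Over the other WT-marked genes the shares were 7.95% and 11.4%, and over all coding genes 19.9% and 22.8%. *Fgfr2*, a receptor of FGF ligands, had 0 bp (WT) and 2550 bp (Delta), with a 265 bp member, and *Gata6* had 0 and 599 bp. *Gse1* had 2465 bp (WT) and 1069 bp (Delta).

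Genes of housekeeping and sensory function were counted as well. No member lay at any of the 80 cytosolic ribosomal protein genes or 1087 olfactory receptor genes. None of these genes had any WT H2AK119ub peak at the TSS, so none could hold a member. H3K27me3 peaks were listed at the TSS of 68 of the 80 ribosomal protein genes in WT, beside 34.8% of all coding genes. The longest at each gene had a median length of 846 bp, against 8530 bp at genes with a member. Clustered protocadherins had a member at 1 of 24 genes, or 4.17%, near the 3.59% of all coding genes. Voltage-gated potassium channels had one at 3 of 22, among them *Kcnc4*, with 1800 against 1480 bp, and *Kcnc1*, with 371 against 1010 bp.

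The longest H3K4me3 peak under a member, 8329 bp (WT) and 5622 bp (Delta), lay at *Bahcc1*, where the 950 bp member held 15 CpGs per 100 bases at its midpoint. *Fzd10*, a Wnt receptor gene, had H3K4me3 peaks of 7782 and 5037 bp over a 324 bp member. Both *Gata2* members met one of 6804 bp (WT) and 6325 bp (Delta). At *Gata6* it was 6532 and 5516 bp, and 213 bp of the 967 bp member were left in Delta.

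Members without H3K27me3 in either genotype numbered 37 and lay unevenly along the genome. Chromosome 8 held 20 of them, 12 within 72 to 75 Mb, and chromosome 1 held 7. Both chromosomes together held 73% of these members but 22.5% of all members. Their median length was 783 bp, and their midpoints held a median of 1.6 CpGs per 100 bases at 57.4% GC. H3K4me3 overlapped 11 of them in WT and 10 in Delta. The longest were at *Speg* (3616 bp in WT, 655 bp in Delta), *Isyna1* (2566 and 2612 bp), *B3gnt3* (2336 and 281 bp), *Mast3* (2183 and 247 bp) and *Fam129c* (2027 and 1334 bp), of which all but *Speg* lie on chromosome 8. Across chromosomes the share of WT peaks that were members ran from 22.9% to 39.1%. Chromosome 8 had the most members, 198, and the highest density, 1.5 per Mb, with a share of 30.4% (27 to 34.1). The part of chromosomes 1 and 8 in the results was not tested beyond leaving them out, which gave an H3K27me3 share in WT of 98.7%.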

How the data were processed

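Peak lists of H2AK119ub, H3K27me3, H3K4me3 and H3K27ac from day 4 EB cells were used, 8 in all, with groups taken from the sample titles. Reads of the 2 inputs were not analysed here. Per the study's methods, the authors mapped reads to mm9 with Bowtie, removed duplicates and called broad peaks with MACS2 2.0.10 in each library against the input of the same genotype. Spike-in scaling was described for tag densities and not for peak calls, so peaks say nothing of the overall level of a mark. The deposited lists hold a fold enrichment over input, a ratio. They also hold the −log10 p-value and −log10 q-value that the authors deposited for each peak, and a score from the authors that was not used. Read depth cannot be derived from them.

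Members, gene lists and alternatives were chosen with earlier results of these data known. Overlaps needed 1 bp. Coordinates are 1-based on NCBIM37 (mm9), with coding genes and TSSs from GENCODE M1 on the same build. Values per member were taken from touching peaks, and values per gene from peaks within 2500 bp of any of its TSSs. Shares have Wilson 95% intervals and medians binomial order-statistic intervals. Named were the 10 longest members, the 5 largest gains and the 5 largest losses of bp, 5 members each on the longest H3K27me3 peaks and the longest H3K4me3 peaks, the 5 longest off H3K27me3, 3 each just inside and just outside the rule, and the genes of each list with at least 3 member genes, of which those with the longest members have values. Genes of lists with fewer, and other genes with H3K27ac, were named after their values were seen. Some of the genes that these rules name are not reported here. Alternatives changed the overlap, the −log10 q, the list size, joining of peaks up to 3000 bp apart, the TSS distance and the chromosomes. The overlap code was tested on simulated data and checked against bedtools 2.31.1, where 0 of 7 counts differed. Analyses used Python 3.11.15, NumPy 2.4.6, SciPy 1.17.1 and matplotlib 3.10.9.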

Additional observations from a re-analysis of the deposited data

How the results depend on the processing

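Members numbered 924 when at least 50% of the WT peak had to be covered by Delta peaks, 523 with a −log10 q of at least 2 in both lists and 1003 with peaks up to 3000 bp apart joined, against 1548. Other alternatives kept this count within 1.5 times. Genes with a member fell from 802 to 491 under the 50% rule. H3K27me3 was found at 94.8% of members in WT and 95.1% in Delta at the midpoint, at 95.1% and 95.3% with H3K27me3 peaks of a −log10 q of at least 3, at 97.5% and 97.8% under the 50% rule and at 98.7% and 98.4% without chromosomes 1 and 8. H3K4me3 was found at 21.3% in WT and 18.8% in Delta at the midpoint and at 43.6% and 37.1% with a −log10 q of at least 3. H3K27ac was found at 0.0646% in WT and 0.129% in Delta at the midpoint, at 0.0646% in each with a −log10 q of at least 3, at 0.167% in WT without chromosomes 1 and 8 and at 0.216% in Delta under the 50% rule. The median H3K27me3 length was 16418 bp in WT and 16310 bp in Delta with peaks joined. With each H3K27me3 peak counted once it was 7932 and 7997 bp, and without chromosomes 1 and 8 it was 14442 and 14216 bp. These alternatives, and leaving out both chromosomes for the counts and the log2 ratio, were chosen after seeing the data. The median log2 ratio of Delta to WT bp was -0.73 for bp inside the member only, -0.26 with WT and Delta peaks chained into loci and -0.45 with peaks joined, against -0.06. The interval of the -0.06 ran from -0.15 to 0.03, so this value had no clear direction. The ratio for bp inside the member only cannot be positive. No paired analysis was possible because each mark had a single library in either genotype. H2AK119ub peaks had a median −log10 q of 2.07 in WT at members and 1.79 at WT peaks without a counterpart. Many of both therefore lie close to the limit of the list, the latter more so. Members and other peaks were compared at like length and not at like −log10 q.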

Other observations

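Of the 120 WT H3K27me3 peaks of 20000 bp and longer, 5 held no member. They included the peaks at *Twist1*, at *Pcdhgc5*, at *Rps6ka4*, and at *Ccdc33* and *Stra6*. The *Pcdhgc5* peak of 64082 bp met 4502 bp of H2AK119ub in WT and 0 in Delta, while at *Rps6ka4* H2AK119ub covered 3292 and 911 bp in WT and Delta without any overlap of a WT and a Delta peak. In contrast to the genes with a member, 193 genes had a Delta H2AK119ub peak at the TSS and none in WT. In the lists these included the blood genes *Runx1* and *Myb*, the endothelial genes *Flt1* and *Sox7*, and the proneural and related genes *Olig1* and *Olig3*.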
